A study of Mus musculus with 18 samples.

Results

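Allantois cells of the mouse embryo at E8.5 were taken from single-cell RNA-seq of whole embryos that lacked one of the DNA methyltransferase genes or were wild type (WT). A cell was counted as an allantois cell when its barcode held at least 3000 mouse UMIs (unique molecular identifiers, each counting 1 captured RNA molecule), at least 1 UMI of Tbx4, at least 1 UMI of Hoxa10, Hoxa11 or Hoxa13, and no UMI of Cdh5, a gene of endothelial cells. The rule found 3561 such cells among 98063 cells, of which 1183 came from WT, 39 from Dnmt1 KO, 1195 from Dnmt3a KO and 1144 from Dnmt3b KO embryos. Each of the 18 libraries was made from 1 embryo, and the groups held 7 libraries of WT, 3 of Dnmt1 KO, 4 of Dnmt3a KO and 4 of Dnmt3b KO embryos on a 129S4/SvJae background. The mutants were homozygous null embryos from matings of heterozygous parents, typed by PCR on the ecto-placental cone, and no group carried a reporter, a Cre or a drug treatment. Separate embryos were the replicates, and the Dnmt3b KO libraries that shared most of their barcodes were counted as 1. This left n = 3 for Dnmt3b KO.

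The allantois is a bud of extraembryonic mesoderm that grows from the posterior end of the primitive streak, meets the chorion and becomes the umbilical vessels and the fetal side of the placenta. Its tip reaches the chorion through the adhesion protein VCAM1 and its partner integrin alpha 4, its core gives rise to endothelium through the transcription factor ETV2, and BMP signalling and the T-box factor TBX4 are needed for its growth and vessel remodelling. Posterior Hoxa genes, Hoxa13 above all, are active in it and in few other cells of the embryo at this age. DNMT1 copies DNA methylation at replication, while DNMT3A and DNMT3B place new methylation after implantation, and the marks silence germline genes, one parental copy of imprinted genes and many retroelements.

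Cells with at least 3000 UMIs numbered 1321 to 9849 per library, total mouse UMIs per library lay between 39528957 and 263845667, and the median per cell lay between 7289 and 59422 UMIs. The libraries labelled Dnmt3b KO 1 and 2 shared 7493 barcodes, or 85.7% and 85.9% of their cells, whereas the highest number among the other pairs was 33 of 153 pairs compared, so both were counted as 1 library of 9972 cells and n was 3 for Dnmt3b KO. In summed allantois cells, Dnmt1 was found at 9.81, 17.1 and 22.8 CPM (a gene's UMIs scaled to one common total, the usual CPM unit) in the Dnmt1 KO libraries and at 102 to 127 CPM in WT. Dnmt3a stood at 10.8, 11.3, 13.7 and 15.1 CPM in Dnmt3a KO and at 28.5 to 51.8 CPM in WT. Dnmt3a was also at 16.5 CPM in the library labelled Dnmt3b KO 11 and at 10.7 CPM in the library labelled Dnmt3b KO 12, against 36.6 CPM in Dnmt3b KO 1 and 2. Dnmt3b itself stood at 42.9 ± 4 CPM (SD, n = 3) in Dnmt3b KO and 41.8 ± 10.1 CPM (SD, n = 7) in WT. Whether these 3′ reads cover the deleted part was not tested, so the level of Dnmt3b is no check of the label. What the Dnmt3a level in these libraries comes from was not tested, and the counts of genes called in Dnmt3b KO and the values of its main genes are given with and without them. Y-linked transcripts were above 10 CPM in 1 of 7 WT, 3 of 3 Dnmt1 KO, 4 of 4 Dnmt3a KO and 2 of 3 Dnmt3b KO embryos.

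Allantois cells made up a small part of every embryo and the smallest part of the Dnmt1 KO embryos. They were 2.0%, 3.32%, 5.45%, 6.76%, 2.65%, 3.22% and 1.82% of the cells of WT 1 to WT 7. In Dnmt1 KO 1, 2 and 3 they were 0.792% (12 cells), 0.449% (14 cells) and 0.532% (13 cells), with exact Clopper-Pearson 95% intervals of 0.410 to 1.38%, 0.246 to 0.752% and 0.284 to 0.908%. No Dnmt1 KO embryo reached the lowest WT embryo, whose interval ran from 1.37 to 2.36%. Dnmt3a KO embryos held 2.55 to 4.71% and Dnmt3b KO embryos 3.05 to 5.85%, both inside the WT range. The mean share of WT embryos was 3.6 ± 1.84% (SD, n = 7) and that of Dnmt1 KO embryos 0.591 ± 0.179% (n = 3), while Dnmt3a KO averaged 3.84 ± 0.935% (n = 4) and Dnmt3b KO 4.26 ± 1.44% (n = 3), with 3.87% in the library of Dnmt3b KO 1 and 2. No test was made, since the rule itself reads the genes that set the share. From cell type proportions, the paper reports a minor developmental delay of Dnmt1 KO embryos, in a set that also held published CRISPR embryos. Stage and genotype therefore cannot be told apart in this share or in the Dnmt1 KO values below.

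Both parts of the rule were scarcer in Dnmt1 KO. Tbx4 alone was found in 5.29% of cells of a WT embryo on average and in 1.07% in Dnmt1 KO, and any of the 3 Hoxa genes in 6.60% and 2.01%. The median cell of all cells of a library held 13415 to 59422 UMIs in Dnmt1 KO and 9551 to 58709.5 in WT, and the median allantois cell 39709.5 to 59536 and 31739.5 to 62504. The part of depth in the shares as counted was not tested. When every cell was thinned to 3000 UMIs the mean share fell to 0.585% in WT, 0.594% in Dnmt3a KO and 0.655% in Dnmt3b KO, and 1 cell in all was left in the 3 Dnmt1 KO embryos. Fewer allantois cells and less Tbx4 or Hoxa RNA per cell cannot be told apart by this rule. All intervals cover counting error only.

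**Figure D1:**
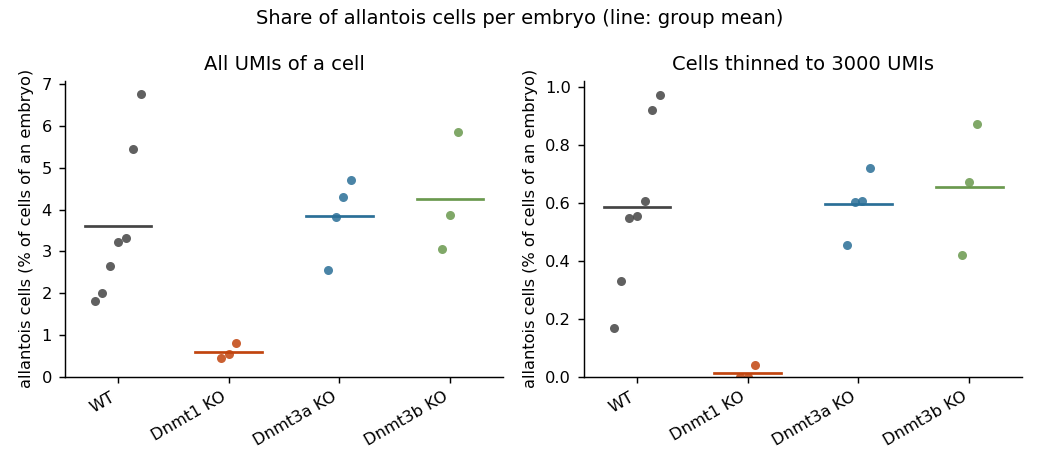
Share of allantois cells (percent of the cells of an embryo) by genotype, as counted and after every cell was thinned to 3000 UMIs, with 1 point per embryo and a line at the group mean. The 3 Dnmt1 KO embryos (0.449 to 0.792%) lie below all 7 WT embryos (1.82 to 6.76%) as counted, while the Dnmt3a KO and Dnmt3b KO embryos overlap WT.

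A part of the members of every genotype lay at the edge of the rule. Cells with exactly 1 UMI of Tbx4 or exactly 1 of the Hoxa genes, which would leave the set with 1 UMI less, were 261 of 1183 members in WT (22.1%), 21 of 39 in Dnmt1 KO (53.8%), 317 of 1195 in Dnmt3a KO (26.5%) and 375 of 1144 in Dnmt3b KO (32.8%). Cells with exactly 1 UMI of both were 50 of 1183 members in WT (4.23%), 8 of 39 in Dnmt1 KO (20.5%), 66 of 1195 in Dnmt3a KO (5.52%) and 86 of 1144 in Dnmt3b KO (7.52%). The median member of WT held 6 Tbx4 UMIs, that of Dnmt1 KO 2, that of Dnmt3a KO 5 and that of Dnmt3b KO 3. Just outside the rule, 395 cells of WT, 33 of Dnmt1 KO, 585 of Dnmt3a KO and 394 of Dnmt3b KO embryos held Tbx4 without a Hoxa UMI, and 735, 91, 896 and 941 cells held a Hoxa UMI without Tbx4. Among WT members, 256 qualified through Hoxa10 alone, 54 through Hoxa11 alone, 28 through Hoxa13 alone and 330 held all 3 genes. In cells outside the rule, thinned to 10000 UMIs, Tbx4 was found in 0.160 to 1.26% of a WT embryo's cells and in 52.8 to 85.1% of members. The levels of the genes that chose the cells, given as a description, were 162 ± 22.1 CPM for Tbx4 in WT (SD, n = 7) and 43.7 ± 21.3 CPM in Dnmt1 KO (n = 3), with 158 ± 14.5 CPM for Dnmt3a KO (n = 4) and 127 ± 33.0 CPM for Dnmt3b KO (n = 3). Hoxa13, the most posterior of the 3, stood at 13.5, 9.82, 18.2 and 23.2 CPM in the same order.

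Genes that the rule did not read also stood high in these cells. Among genes at 50 CPM or more in WT members, the largest ratio over all other cells of the same embryo belonged to Pitx1, a homeobox gene of the hindlimb field and posterior lateral plate, with a median log2 ratio of 4.35 (lowest 4.28, highest 4.80 over 7 embryos). Twist2, a mesenchymal bHLH factor, followed at 3.97 and Plac1, a placental gene on the X chromosome, at 3.68. The list went on with Spin2c (3.64), Rgs5 (3.28), a gene of pericytes, Phlda2 (3.21) and Cdkn1c (2.95), both imprinted growth restrictors, and Snai1 (2.85), a repressor of epithelial genes. Hoxc9 (2.89) and Hoxa9 (2.69), the T-box genes Tbx20 (2.48) and Tbx3 (2.35), and the imprinted genes Slc38a4 (2.87), Asb4 (2.67) and Sgce (2.56) were also among the 20 genes named by this ratio. All 20 were higher in members than in the other cells in 7 of 7 WT embryos. They were chosen by this ratio in the same embryos, so that count is no support.

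A closer neighbour of the allantois is the rest of the lateral plate and extraembryonic mesoderm, taken here as 9470 cells with UMIs of Hand1 and Foxf1 and none of the rule's genes. Against these cells Etv2 stood highest among the 20 genes, with a median log2 ratio of 3.70, followed by Cdkn1c (3.53), Plac1 (3.53), Pitx1 (2.85) and Amot (2.81). Col1a1, the fibrillar collagen of mesenchyme, had a ratio of -0.27 and was higher in members in 3 of 7 embryos, Tbx20 was higher in 6 of 7 (0.72), and the other 18 genes were higher in 7 of 7. In WT members thinned to 10000 UMIs, Pitx1 was found in 73.6 to 88.4% of cells of an embryo (median 86.2%), Hand1 in 71.0 to 85.6% (median 75.0%) and Foxf1 in 61.3 to 83.0% (median 75.3%), whereas Pitx1 was found in 5.31 to 6.48% of all other cells. These ratios are a description of cells picked by a rule and carry no test. Whether the rule also admits cells of the posterior lateral plate was not tested.

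Marker genes of other cell types were also measured in the summed members, as a check of mixed droplets and free RNA. The 8 blood and megakaryocyte markers reached at most 2.46 CPM in WT and 9.13 CPM in Dnmt1 KO. The 8 yolk sac endoderm markers, among them the highly expressed Ttr, summed to 44.3 to 1420 CPM in WT members (median 319), 16.0 to 71.5 in Dnmt1 KO, 211 to 724 in Dnmt3a KO and 81.6 to 610 in Dnmt3b KO, against 2108 to 7792 CPM in the other cells of WT embryos. Ttr was found in 6.45 to 34.3% of thinned WT members. The 8 cardiac markers summed to 91.0 to 669 CPM in WT members (median 119), to 123 to 140 in those of Dnmt1 KO, 156 to 220 for Dnmt3a KO and 244 to 505 for Dnmt3b KO. The 8 somite and head mesenchyme markers summed to 268 to 406 CPM in WT members and 147 to 225 in the other cells, and to 154 to 239 CPM in Dnmt1 KO members against 38.3 to 99.5 in theirs. The 8 trophoblast markers summed to 114 to 271 CPM (median 212) in WT members and 99.3 to 142 (median 105) in the other cells, and in Dnmt1 KO to 152 to 220 and 172 to 468 CPM. The presomitic markers overlapped, at 74.7 to 149 and 79.5 to 153 CPM in WT, and gut endoderm (40.1 to 226 against 652 to 1448 CPM) and neural markers (10.2 to 46.9 against 92.0 to 196 CPM) stood lower in WT members. The part of other cell types in the members' values was not tested. The 8 endothelium markers ranged from 59.8 to 164 CPM in WT and from 61.7 to 92.4 CPM in Dnmt1 KO, where Emcn, Tie1 and Icam2 were at 0. Of the 9 primordial germ cell markers, whose cells arise at the base of the allantois, Dppa3, Nanos3 and Prdm14 were at 0 in all Dnmt1 KO members and the sum was 727 to 1150 CPM there against 276 to 613 in the other cells, while in WT it was 387 to 759 CPM (median 520) in members and 299 to 478 (median 424) in the other cells. Most of this sum was Ifitm1, which is not confined to germ cells here. In members with Cdx4 and neither Etv2 nor Vcam1, it stood at 872 and 1069 CPM in 2 Dnmt1 KO embryos. The WT median was 694 CPM in such cells and 156 in those with Vcam1 and neither of the other two. Median mitochondrial and ribosomal protein shares of members were 1.81 to 4.44% and 21.1 to 29.1% over the 17 libraries.

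WT allantois cells were not uniform, and 3 genes known from the tip, the core and the base showed it. The 3 genes used for this split were chosen after their values were seen, as were genes whose levels are set beside it. The split is a description with no test. After thinning to 10000 UMIs, 1120 WT members were left and 63 shallower ones dropped. Cdx4, a caudal homeobox gene of the posterior end, was found in 414 of them, Etv2 in 286 and Vcam1 in 206. Vcam1 and Cdx4 met in 12 cells, where the product of both shares, taken within each embryo and summed over embryos, comes to 69.0 cells, and Vcam1 and Etv2 met in 10 cells against a product of 51.1. Etv2 and Cdx4 met in 125 cells, against a product of 109.8. In Dnmt3a KO Vcam1 and Cdx4 met in 15 cells and in Dnmt3b KO in 12, against products of 67.6 and 58.3. Detection at one depth does not show that a gene was off in a cell.

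The cells with a Vcam1 UMI held more RNA of the contractile genes Acta2 and Tagln and of the matrix gene Col1a1 than the cells with a Cdx4 UMI. Acta2, smooth muscle actin, stood at 381 CPM (median of 6 WT embryos, range 203 to 691) in cells with Vcam1 and neither Etv2 nor Cdx4, and at 48.1 CPM (27.9 to 64.6, 7 embryos) in cells with Cdx4 and neither of the other two. Tagln, a calponin-like actin-binding gene, stood at 172 and 19.2 CPM, Col1a1 at 186 and 39.7, the ligand gene Wnt2 at 152 and 25.7, and Cdkn1c at 4118 and 988. The order was the opposite for Hoxaas3, an antisense transcript of the Hoxa cluster, at 9.80 CPM in Vcam1 cells and 308 in Cdx4 cells. Lef1, a Wnt effector, followed it at 36.9 and 174 CPM, Cdx2 at 50.9 and 180, Osr1 at 1.10 and 38.91, and Isl1 at 21.9 and 79.1. No value of an embryo overlapped between both kinds of cells for Acta2, Tagln, Col1a1, Wnt2, Cdkn1c, Hoxaas3, Lef1, Cdx2, Osr1 and Isl1. Genes set beside the split were chosen after their values were seen, so this lack of overlap is no support. The share of all genes without overlap was not counted, and other contractile and matrix genes were not compared here.

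The cells with an Etv2 UMI carried early vascular genes. All 286 such WT cells were taken, among them the 125 with Cdx4 and the 10 with Vcam1. Kdr, the VEGF receptor of angioblasts, stood at 247 CPM in them (range 205 to 358, 7 embryos), 64.3 in Cdx4 cells and 8.5 in Vcam1 cells. Hhex, a homeobox gene of early endothelium, stood at 91.9, 0.659 and 0.204 CPM, Tal1 at 48.6, 1.07 and 0.265, Lmo2 at 110, 28.8 and 1.68, and Sox18 at 35.4, 0.654 and 0. The cells of this kind lacked Cdh5 by the rule. Tbx4, which chose the cells, was at 142, 138 and 194 CPM in Etv2, Cdx4 and Vcam1 cells.

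**Figure D2:**
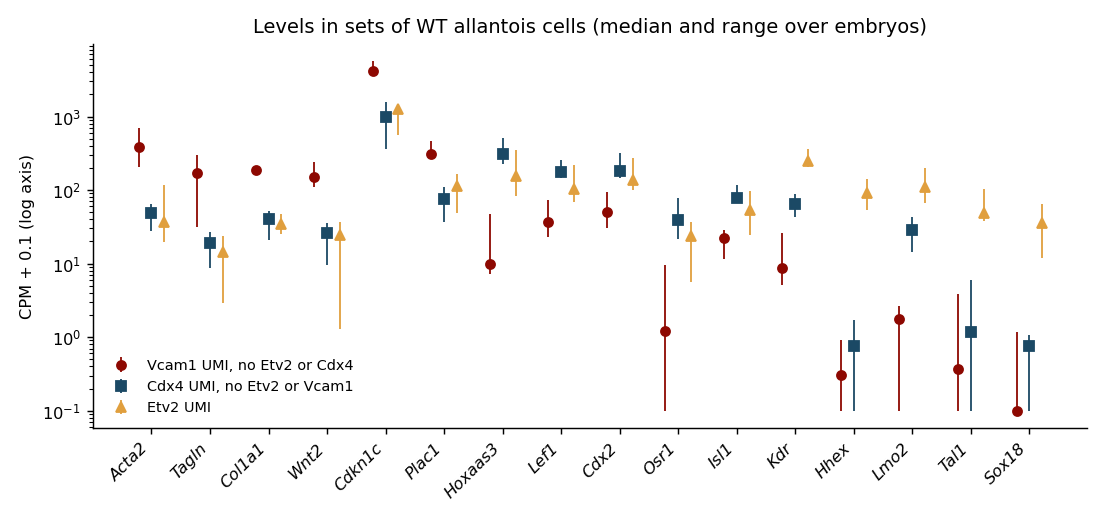
Levels (CPM + 0.1 on a log axis) of 16 genes in WT allantois cells with a UMI of Vcam1, of Cdx4 or of Etv2, as the median and range over embryos. Acta2 (381 CPM in Vcam1 cells, 48.1 in Cdx4 cells), Tagln and Col1a1 lie on one side, Hoxaas3 and Lef1 on the other, and Kdr, Hhex and Tal1 stand highest in Etv2 cells.

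Embryos differed in the makeup of the set. Vcam1 was found in 3.77 to 23.8% of thinned members of a WT embryo, with the lowest share in WT 7 and the next lowest, 9.70%, in WT 6. Cdx4 ran the other way, from 21.5% in WT 2 to 52.1% in WT 6 and 71.7% in WT 7. In the summed members of WT 7 Vcam1 stood at 0.873 CPM and Cdx4 at 365 CPM, against 18.5 to 54.4 and 52.5 to 165 CPM in the other WT embryos. Dnmt1 KO members had a Vcam1 UMI in 1 of 39 cells and a Cdx4 UMI in 20 of 39, so that the shares per embryo were 0, 7.14 and 0% for Vcam1 and 42.9 to 61.5% for Cdx4. Etv2 was found in 23.1 to 28.6% of Dnmt1 KO members and in 16.6 to 35.2% of WT members. In Dnmt3a KO Etv2 was found in 13.9 to 23.3% and in Dnmt3b KO in 5.11 to 18.1% of members, with the lowest value in the library labelled Dnmt3b KO 12. In summed counts Etv2 was at 86.7 to 308 CPM in WT (median 107), 39.8, 39.8, 72.4 and 86.8 in Dnmt3a KO, and 44.6, 65.8 and 13.3 in Dnmt3b KO. The difference missed the thresholds, at -1.14 ± 0.39 (SE) on the log2 scale (adjusted p = 0.28 in edgeR) in Dnmt3a KO and -1.63 ± 0.44 (adjusted p = 0.080) in Dnmt3b KO. Kdr was at 96.8 ± 31.2 CPM in WT (SD, n = 7), 46.6 ± 12.3 in Dnmt3a KO (adjusted p = 0.073 in edgeR) and 41.2 ± 11 in Dnmt3b KO (adjusted p = 0.021). With Dnmt3b KO 1 and 2 as the only library of its group, the differences from WT were -1.62 ± 0.59 for Etv2 (adjusted p = 0.89) and -1.10 ± 0.38 for Kdr (adjusted p = 0.83).

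**Figure D3:**
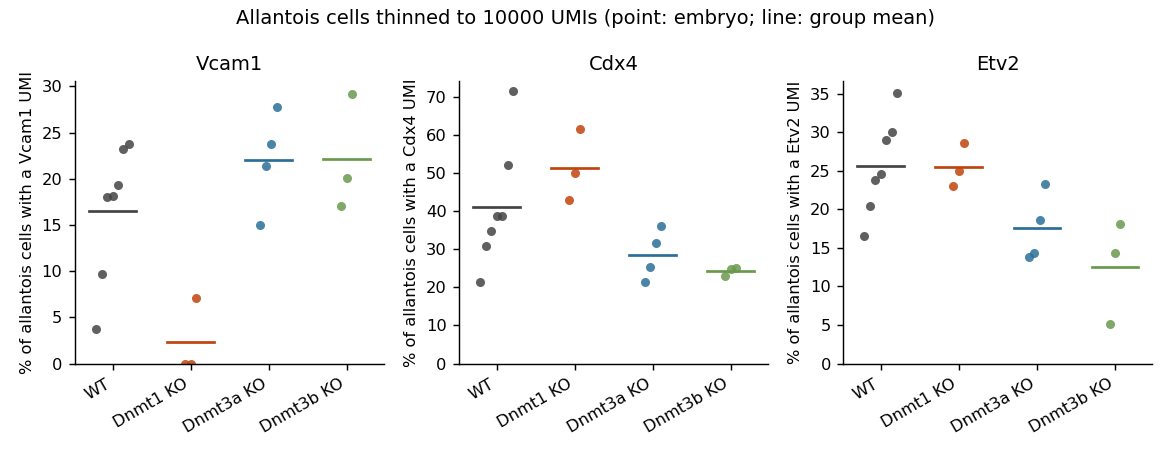
Percent of allantois cells with a UMI of Etv2, Vcam1 or Cdx4 after thinning to 10000 UMIs, with 1 point per embryo and a line at the group mean. Dnmt1 KO embryos lie at 0 to 7.14% for Vcam1 and at 42.9 to 61.5% for Cdx4, and WT embryos spread from 3.77 to 23.8% and from 21.5 to 71.7%.

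To ask how each methyltransferase bears on gene expression in these cells, UMIs were summed over the members of each embryo and compared with edgeR. Calls needed a Benjamini-Hochberg adjusted p under 0.01 together with a shift of 1 or more, up or down, in log2 fold change. In Dnmt1 KO 270 of 12630 genes were called (2.14%), 170 higher (1.35%) and 100 lower (0.792%). In Dnmt3a KO 12 of 12535 genes were called (0.0957%), 10 higher (0.0798%) and 2 lower (0.016%), and in Dnmt3b KO 77 (0.614%), 75 higher (0.598%) and 2 lower (0.016%). The sums held 526703 to 876385 UMIs per embryo in Dnmt1 KO, 1197570 to 13971060 in WT, and 5707881 to 16767515 in the other KO groups. Of the called genes, 260 of 270, 12 of 12 and 77 of 77 had KO libraries that did not overlap WT, where the share among all genes tested was 16.3%, 1.80% and 4.87%. The median log2 fold change of all genes tested was -0.07, -0.00 and -0.01. X-linked genes were 35 of the 270, 2 of the 12 and 21 of the 77 calls, and 2 of the 270 were Y-linked. The share of X-linked genes among all genes tested is not given, so these counts are a description. Y-linked transcripts were above 10 CPM in 1 of 7 WT, 3 of 3 Dnmt1 KO, 4 of 4 Dnmt3a KO and 2 of 3 Dnmt3b KO embryos. Sex and genotype therefore cannot be fully told apart in these calls. With the level of Y-linked transcripts as a covariate the counts were 327, 12 and 102, with 210, 6 and 75 of the same genes.

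The calls higher than WT held 17 genes of the germline list among 170 in Dnmt1 KO, 2 among 10 in Dnmt3a KO and 19 among 75 in Dnmt3b KO. In all 3 mutants 8 genes were called, each higher than WT: Cyct, Rec114, Slc9b1, Stk31, Tex12, Tex15, Tex19.1 and Xlr. Cyct encodes the cytochrome c of the testis, Rec114 a factor for meiotic DNA breaks, Tex12 and Sycp1 parts of the synaptonemal complex, Tex15 a factor of the piRNA pathway and Stk31 a kinase of germ cells. The 3 comparisons share the WT embryos, so their calls are set side by side and not tested for overlap. Dnmt1 KO and Dnmt3b KO had 50 called genes in common, which is 50 of 270 and 50 of 77, Dnmt1 KO and Dnmt3a KO had 9, and Dnmt3a KO and Dnmt3b KO had 8. The direction was the same for 49 of the 50, 8 of the 9 and 8 of the 8. Gm14226 was called higher in Dnmt1 KO and lower in Dnmt3b KO, and Asb4 lower in Dnmt1 KO and higher in Dnmt3a KO. The Dnmt1 KO libraries held Gm14226 at 60.3, 5.70 and 62.8 CPM, of which the second lies inside the WT range of 4.66 to 26.2 CPM, and that call was lost under 9 of 33 alternatives. Without the libraries labelled Dnmt3b KO 11 and 12 in the fit, the Dnmt3b KO calls of Tex15 and Xlr were lost (adjusted p = 0.19 and 0.013 in edgeR), so that 6 of the 8 genes stayed. In that fit Dnmt3b KO had 18 calls, of which 17 were shared with Dnmt1 KO and 9 with Dnmt3a KO, and 9 genes were called in all 3 mutants, with Dazl, Rpl39l and Slc25a31 beside these 6.

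Promoters of the called genes are shown because methylation acts there, with each CpG, the dinucleotide that carries methylation, in capitals. The sequences are RefSeq's on GRCm38.p6, 250 bases before to 50 after the start of the gene, 5′ to 3′ on the gene's strand. Cyct lies at chr2:76360404-76360703 on the minus strand, Tex12 at chr9:50561219-50561518 on the minus strand and Sycp1 at chr3:102936051-102936350 on the minus strand. Gpr50, called in Dnmt3a KO and no other mutant, is shown beside them and lies at chrX:71663417-71663716 on the plus strand.
Cyct: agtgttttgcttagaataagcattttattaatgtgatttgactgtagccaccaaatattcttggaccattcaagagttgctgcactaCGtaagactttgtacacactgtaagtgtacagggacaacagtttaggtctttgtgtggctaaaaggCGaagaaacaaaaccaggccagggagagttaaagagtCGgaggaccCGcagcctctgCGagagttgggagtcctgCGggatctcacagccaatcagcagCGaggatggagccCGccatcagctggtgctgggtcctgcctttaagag
Tex12: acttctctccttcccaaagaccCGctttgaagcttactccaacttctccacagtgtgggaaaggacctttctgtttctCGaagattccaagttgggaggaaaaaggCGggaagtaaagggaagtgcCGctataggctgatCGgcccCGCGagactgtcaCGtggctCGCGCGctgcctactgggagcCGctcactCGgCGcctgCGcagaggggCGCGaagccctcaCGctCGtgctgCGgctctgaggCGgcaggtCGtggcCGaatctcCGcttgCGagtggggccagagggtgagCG
Sycp1: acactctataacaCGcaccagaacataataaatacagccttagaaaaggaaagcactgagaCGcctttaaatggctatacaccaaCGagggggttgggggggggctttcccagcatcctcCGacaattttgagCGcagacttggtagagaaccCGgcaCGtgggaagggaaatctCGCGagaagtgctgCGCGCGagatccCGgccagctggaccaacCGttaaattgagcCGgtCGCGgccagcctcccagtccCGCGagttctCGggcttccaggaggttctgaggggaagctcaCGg
Gpr50: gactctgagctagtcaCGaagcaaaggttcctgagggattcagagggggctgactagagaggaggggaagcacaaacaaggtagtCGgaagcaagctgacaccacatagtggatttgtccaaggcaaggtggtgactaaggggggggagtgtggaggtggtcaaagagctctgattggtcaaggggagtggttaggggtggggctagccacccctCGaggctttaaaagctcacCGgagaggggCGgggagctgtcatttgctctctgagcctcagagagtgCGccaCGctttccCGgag
Cyct and Gpr50 hold 8 CpGs each, Sycp1 21 and Tex12 26. CACGTG, the E-box letters, and TCCCGC, the letters known for E2F6, were searched on both strands, since both are known from promoters of germline genes. TCCCGC starts at -23 in Cyct, at -145 in Tex12 and at 2 in Sycp1, counted from the start of the gene, and CACGTG at -93 in Tex12 and -94 in Sycp1. Neither set of letters is in the Gpr50 window. At least 1 of them was in 33 of 61 promoters of genes higher in Dnmt3b KO (54.1%), 62 of 145 in Dnmt1 KO (42.8%), 7 of 11 in Dnmt3a KO (63.6%) and 7 of 8 promoters of the genes called in all 3. These 8 promoters belong to 7 genes, since Tex15 had none and Stk31 had 2 overlapping windows with the same CACGTG. Slc9b1 held neither set of letters. Among 12331 promoters of the genes tested the share was 41.9% and among all 32851 promoters 25.1%. Promoters were found for 57 of the 75 genes higher in Dnmt3b KO, 133 of 170 in Dnmt1 KO and 9 of 10 in Dnmt3a KO, and their median number of CpGs was 15, 13 and 10, against 21 over genes tested. A match of letters is a description of the window and no evidence of binding.

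In Dnmt1 KO the germline list, 32 genes of meiosis, piRNA and spermatogenesis, had 17 of 27 tested genes called higher and none lower, and all 27 had a positive log2 fold change (median 4.72). Over all genes tested, 1.35% were called higher. A gene near 0 in WT passed the filter on low counts only through a knockout group where it was high. The signs and medians of this list were therefore in part fixed by that filter, in every comparison, and are no support of their own. Rpl39l, a testis-rich copy of a ribosomal protein gene, was at 123, 140 and 177 CPM in the 3 Dnmt1 KO embryos and at 0 to 2.04 CPM (median 1.07) in WT. The groups lay far apart, by 7.27 ± 0.54 (SE) on the log2 scale (adjusted p = 5.2e-08 in edgeR). Sycp1 was at 53.2, 55.1 and 11.4 CPM in Dnmt1 KO, while WT members held 3 UMIs of it in all, a ratio of 655 with a counting interval of 216 to 3246. Dazl, a translational regulator that licenses germ cells, was at 36.4, 135 and 99.3 CPM against 0 to 0.321 CPM in WT (adjusted p = 2.0e-04). Cyct was at 26.6, 15.2 and 22.8 CPM against 0 to 0.423 CPM in WT (adjusted p = 2.2e-06). Tex15 is the one of these with clear WT expression, at 4.33 to 9.19 CPM (median 6.70), and rose to 28.0, 28.5 and 27.4 CPM, a log2 fold change of 1.94 ± 0.23 (adjusted p = 2.0e-05). Tex13b and Rhox13 had no UMI in WT members, so their levels in Dnmt1 KO were at least 578-fold and 383-fold higher than a floor of 3 counts over the group. In thinned cells Rpl39l was found in 66.7 to 78.6% of Dnmt1 KO members and in 64.1 to 66.7% of the other cells of these embryos, and in at most 2.76% of WT members.

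Imprinted genes moved in both directions in Dnmt1 KO, with 4 of 31 tested called higher and 6 called lower, beside 1.35% and 0.792% of all genes tested. Grb10, an imprinted adaptor that restrains insulin and IGF signalling, was at 1.40, 0 and 1.14 CPM in the 3 Dnmt1 KO embryos and at 258 to 345 CPM (median 305) in WT, a change of -8.34 ± 0.29 (SE) on the log2 scale (adjusted p = 1.0e-13 in edgeR). Cdkn1c, the cell cycle inhibitor on the Kcnq1 domain, was at 53.2, 15.2 and 14.8 CPM against 638 to 2968 CPM in WT, with WT 7 lowest (-6.13 ± 0.48, adjusted p = 8.5e-08). Igf2r, the receptor that clears IGF2, was at 28.0, 28.5 and 27.4 CPM against 188 to 317 CPM (-3.15 ± 0.20, adjusted p = 8.4e-09). Its antisense partner Airn was higher, at 53.2 ± 15.9 CPM (SD, n = 3) against 22.3 ± 3.05 CPM (n = 7), with adjusted p = 7.9e-04, and both genes overlap in the genome. Dlk1, a Notch-like growth factor, fell to 51.8, 60.8 and 22.8 CPM from 181 to 348 CPM in WT (log2 fold change -2.70). Igf2 was at 0, 1.90 and 0 CPM against 18.6 to 43.4 CPM in WT (adjusted p = 3.0e-04).

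The imprinted genes that rose were the paternally expressed Peg3, Peg10 and Usp29 together with Airn. Peg3, a zinc finger gene, was at 2005, 2174 and 1325 CPM in Dnmt1 KO and at 595 to 739 CPM in WT (log2 fold change 1.45 ± 0.12, adjusted p = 1.6e-07 in edgeR). Peg10, a retrotransposon-derived placental gene, was at 970, 1337 and 676 CPM against 250 to 507 CPM (1.28, adjusted p = 7.8e-04). H19, the imprinted non-coding RNA beside Igf2, was at 1289 to 2248 CPM against 937 to 1516 CPM and missed the thresholds (adjusted p = 0.094). Asb4, an imprinted gene needed for placental vessels, fell to 30.8, 17.1 and 24.0 CPM from 66.7 to 127 CPM (adjusted p = 7.0e-04). Phlda2 (2627 and 2848 CPM in Dnmt1 KO and WT) and Mest (1244 and 1042 CPM) were not called.

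**Figure D4:**
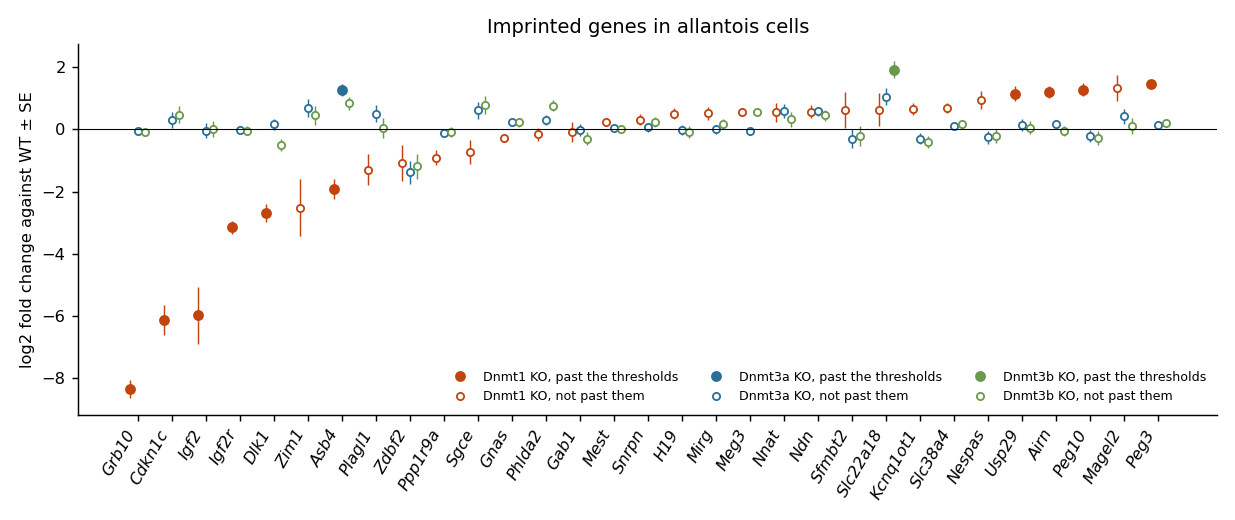
Log2 fold changes (± SE) of imprinted genes in allantois cells of each mutant against WT, ordered by the value in Dnmt1 KO, with filled points for genes past both thresholds. Grb10 (-8.34), Cdkn1c (-6.13) and Igf2 (-5.98) lie lowest and Peg3 (1.45) and Peg10 (1.28) among the highest in Dnmt1 KO, while 1 gene each is past the thresholds in Dnmt3a KO (Asb4) and Dnmt3b KO (Slc22a18).

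Of 28 factors of allantois and posterior mesoderm identity tested in Dnmt1 KO members, 2 were called lower and none higher. Over all genes tested, 0.792% were called lower. A positive log2 fold change was found in 5 of the 28, and the median was -0.69 against -0.07 over all genes. With 39 cells in this group, a gene without a call was not shown to be unchanged. Snai1 was at 18.2, 9.49 and 10.3 CPM in Dnmt1 KO and at 72.8 to 139 CPM (median 103) in WT, a log2 fold change of -3.01 ± 0.31 (adjusted p = 3.4e-06 in edgeR). Tbx2, the T-box partner of Tbx4 on its chromosome, was at 4.20, 5.70 and 4.56 CPM against 11.6 to 41.4 CPM (-2.60 ± 0.50, adjusted p = 2.6e-03). Twist2 fell to 12.7 ± 9.86 CPM (SD, n = 3) from 72.4 ± 22.9 (n = 7), with adjusted p = 3.3e-03. Hand1 (233 CPM in Dnmt1 KO and 223 in WT), Foxf1 (150 and 174), Pitx1 (200 and 259) and Msx1 (147 and 174) did not pass the thresholds. Isl1 was at 26.2 to 28.5 CPM against 30.9 to 77.3 CPM and missed them narrowly (log2 fold change -1.09, adjusted p = 0.013).

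Of the 31 other Hox genes tested, 3 were called lower in Dnmt1 KO and none higher, beside 0.792% and 1.35% of all genes tested. A positive log2 fold change was found in 8 of the 31 (median -0.25, against -0.07 over all genes). Hoxa9, next to the genes of the rule, was at 32.2, 30.4 and 27.4 CPM against 78.4 to 155 CPM in WT (log2 fold change -1.84, adjusted p = 1.9e-05 in edgeR). Hoxc10 was at 2.80, 5.70 and 1.14 CPM against 25.1 to 34.8 CPM and Hoxc11 at 0, 1.90 and 1.14 CPM against 3.34 to 9.32 CPM (adjusted p = 8.4e-03), a call that was lost under 17 of 32 alternatives. The more anterior Hoxa7 (60.9 and 69.2 CPM), Hoxb6 (58.5 and 62.4) and Hoxb8 (62.5 and 63.1) were not called. The cells had to hold a UMI of Hoxa10, Hoxa11 or Hoxa13 in every genotype, so these values describe cells chosen by that cluster.

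The calls among signalling and matrix genes in Dnmt1 KO stand beside 1.35% of all genes called higher and 0.792% called lower. Among 23 BMP pathway genes, the ligand gene Bmp5 rose to 30.8, 34.2 and 17.1 CPM from 6.40 to 14.2 CPM (log2 fold change 1.48 ± 0.27, adjusted p = 1.9e-03 in edgeR), and Smad6, an inhibitory SMAD, fell to 11.2, 7.59 and 7.99 CPM from 20.4 to 55.6 CPM (-2.02, adjusted p = 2.3e-03). Bmp4, the ligand the allantois needs to form, was at 107 to 193 CPM against 95.0 to 141 CPM and not called. Bmp5 was also the one gene called among 16 chorioallantoic fusion genes. Vcam1 was at 0, 1.90 and 12.6 CPM against 0.873 to 54.4 CPM in WT, with the lowest WT value in WT 7, and missed the thresholds (-2.48 ± 0.96, adjusted p = 0.12). No gene of 32 Wnt and Fgf genes was called, and Wnt2 was at 2.28 to 36.4 CPM against 16.3 to 97.3 CPM (adjusted p = 0.057). The microfibril gene Mfap2 (3.68 against 28.6 CPM) and the collagen gene Col1a2 (24.1 against 77.5 CPM) were lower among 26 matrix genes, whose median log2 fold change was -1.03, or -0.80 with the 2 genes at 0 in Dnmt1 KO set to the bound that 3 counts give. Of 17 vascular signalling and angioblast genes, the growth factor genes Vegfc (9.86 against 33.1 CPM) and Pgf (17.2 against 38.7 CPM) were lower, and the Pgf call was lost under 11 of 33 alternatives. No gene of 12 smooth muscle genes was called (median -0.87), and Acta2 was at 33.6 to 81.6 CPM against 57.1 to 343 CPM. A positive log2 fold change was found in 1 of these 12, 5 of the 26 matrix and 7 of the 17 vascular genes. It was found in 8 of the 23 BMP, 8 of the 16 fusion and 11 of the 32 Wnt and Fgf genes. A Vcam1 UMI was held by 1 of the 39 members, and in the Cdx4 cells alone Acta2 stood at 40.9 and 97.8 CPM in the 2 Dnmt1 KO embryos with 5 or more such cells and at 27.9 to 64.6 CPM in WT. The part of this makeup in the values of these lists was not tested.

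Further lists held at most 3 calls each in Dnmt1 KO, beside 1.35% of all genes called higher and 0.792% called lower. Kit, the receptor of germ cells and melanoblasts, was at 56.1, 57.0 and 54.8 CPM against 14.4 to 25.9 CPM in WT (log2 fold change 1.40) and Ifitm3 at 39.9 to 90.1 CPM against 14.7 to 31.4 CPM, the 2 called of 6 primordial germ cell markers tested, while Dppa3, Nanos3 and Prdm14 were at 0. Pmaip1 (23.0 against 2.68 CPM), Phlda3 (35.6 against 14.8) and Ccng1 (43.6 against 16.6), all known p53 targets, were the 3 called of 17, all higher, and Cdkn1a was at 11.4 to 14.8 CPM against 1.67 to 6.06 CPM without a call (adjusted p = 0.028 in edgeR). The p53 list did not move as a whole, with a positive log2 fold change in 9 of its 17 genes (median 0.14). Xlr3a was the one called of 5 extraembryonic marker genes, at 19.6 ± 6.39 CPM (SD, n = 3) against 1.62 ± 1.07 (n = 7), and Trap1a was at 27.4 to 150 CPM against 0.582 to 27.2 CPM (adjusted p = 0.018). Pou5f1, the pluripotency factor, was at 9.49 to 41.1 CPM against 1.04 to 17.5 CPM (adjusted p = 0.069), and none of 3 primed pluripotency genes was called. Tpi1, a glycolytic enzyme gene, was the one called of 17 glycolysis and hypoxia genes (304 against 622 CPM), of which 2 had a positive log2 fold change (median -0.43). None was called among 18 S phase, 18 G2 and M phase, 14 dissociation stress and 20 housekeeping genes, nor in the lists of other cell types given above apart from the germ cell list. Among these lists a positive log2 fold change was found in 0 of 8 yolk sac endoderm genes tested (median -3.27), 0 of 6 neural, 2 of 8 cardiac, 1 of 8 gut endoderm, 1 of 7 somite and head mesenchyme, 2 of 6 endothelium, 3 of 7 trophoblast, 4 of 6 presomitic and 1 of 2 blood and megakaryocyte genes. With genes at 0 in Dnmt1 KO set to the bound of 3 counts over the group, the medians were -1.71 for the neural, -1.25 for the cardiac, -0.87 for the gut endoderm, -0.83 for the somite, 0.21 for the endothelium and 0.90 for the trophoblast list, and the presomitic list stood at 0.18. The medians of the fitted values were -0.56 for the endothelium and -0.49 for the trophoblast list, of the other sign. Further calls with the smallest p outside the lists were the circadian gene Noct (73.3 against 12.4 CPM), Gm21887 (119 against 5.08) and Trim5 (10.8 against 0.0402), which were higher, and Fabp5 (86.3 against 368) and Mlf2 (117 against 238), which were lower. These comparisons rest on 39 cells of 3 embryos, and without Dnmt1 KO 1 or Dnmt1 KO 3 the count of called genes was 137 or 149.

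Dnmt3a KO members differed from WT in 12 genes. Tex15 was at 21.5, 19.5, 18.1 and 22 CPM in Dnmt3a KO 1, 2, 13 and 14, above all WT embryos, by 1.48 ± 0.16 (SE) on the log2 scale (adjusted p = 7.9e-04 in edgeR). Gpr50, an X-linked orphan receptor of the melatonin receptor family, was at 16.5, 9.31, 13.9 and 8.34 CPM against 0.835 to 3.91 CPM in WT (2.20 ± 0.29, adjusted p = 2.2e-03), while Dnmt3b KO stood at 3.15 to 3.53 CPM. Stk31 was at 4.92, 5.17, 7.33 and 6.55 CPM against 0 to 1.06 CPM (4.15, adjusted p = 2.2e-03). Cyct was at 3.23 to 5.17 CPM against 0 to 0.423 CPM (4.88 ± 0.64, adjusted p = 2.2e-03), Rec114 at 5.17 to 12.1 CPM against 0 to 2.64, and Xlr at 2.72 to 6.34 CPM against 0.106 to 1.67. Asb4 was at 216, 151, 228 and 301 CPM against 66.7 to 127 CPM (1.26, adjusted p = 7.3e-03). Besides Dnmt3a itself, Gstm6, a glutathione transferase gene, fell, from 0.835 to 2.91 CPM in WT to 0, 0, 0.247 and 0.255 CPM. Of the germline list 2 of 22 tested genes were called and all 22 had a positive log2 fold change (median 2.13), and no gene was called among the allantois factors, BMP, Wnt and Fgf, Hox, matrix, smooth muscle and vascular lists. Germline genes near 0 in WT could enter this fit through Dnmt3b KO. Tuba3b held 540 UMIs there, 5 in Dnmt3a KO and 2 in WT. With WT near 0 such a gene can hardly show a negative value, so these signs are no support of an effect across the list. The 12 calls did not hold when the smallest WT sum (WT 5) was left out by a minimum of 50 cells, when 4 were left, or when all sums were thinned to the smallest, when none was left, and leaving out 1 library at a time gave between 1 and 26 calls.

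Libraries whose omission moved the Dnmt3a KO count by more than 1.5 times were Dnmt3a KO 1 (1 call), 2 (6), 13 (1) and 14 (4), WT 1 (5), WT 2 (26), WT 3 (1), WT 4 (2), WT 5 (4), WT 6 (1), WT 7 (4) and Dnmt3b KO 12 (22). Tex15 passed under 30 of 34 alternatives, Gpr50 under 25 of 34, Cyct under 25 of 33 and Stk31 under 25 of 31. Fewer were passed by Asb4 (19 of 34), Tex12 (18 of 31), Rec114 (17 of 34), Xlr (15 of 31), Gstm6 (15 of 31), Dnmt3a (14 of 34) and Slc9b1 (14 of 31).

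Dnmt3b KO members had 77 called genes, all but 2 of them higher. Of the germline list 19 of 22 tested genes were called higher, beside 0.598% of all genes, with a median log2 fold change of 4.94. The filter on low counts in part fixed the signs and median of this list, as in the other comparisons. Rpl39l was at 27.7, 69.6 and 142 CPM in Dnmt3b KO 1 and 2, 11 and 12, against at most 2.04 CPM in WT (6.39 ± 0.54, adjusted p = 7.0e-06 in edgeR). Sycp1 was at 17.2, 27.4 and 62.2 CPM (8.97 ± 0.64, adjusted p = 8.8e-07), a ratio of 541 to WT with a counting interval of 185 to 2628. Dazl spread over 3.90, 26.2 and 416 CPM and Tuba3b, a testis tubulin gene, over 3.53, 6.74 and 68.2 CPM. Cyct was at 4.92, 13 and 31.4 CPM and Mov10l1, a helicase of the piRNA pathway, at 3.99, 6.56 and 16.6 CPM against at most 0.211 CPM in WT. The library labelled Dnmt3b KO 12 held the highest level of all 6 of these genes and the library of Dnmt3b KO 1 and 2 the lowest. In Tex15 the order was another, at 15.8, 13.9 and 19.97 CPM (1.18 ± 0.18, adjusted p = 9.8e-04).

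Rpl39l and Sycp1 were found in cells of all 3 kinds, given here with no test. In Dnmt3b KO, Rpl39l stood at a median of 81.0 CPM in Vcam1 cells, 51.1 in Cdx4 cells and 58.3 in Etv2 cells, with ranges over embryos of 30.2 to 151, 19.6 to 110 and 24.5 to 102 CPM. Sycp1 stood at 48.8, 16.3 and 16.5 CPM in the same order. In thinned cells Rpl39l was found in 20.7, 40.2 and 74.4% of Dnmt3b KO members per embryo and in 20.5 to 61.9% of the other cells of the embryos.

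Outside the germline list, Slc22a18, an imprinted transporter gene beside Cdkn1c, was at 20.5, 18.4 and 47.1 CPM in Dnmt3b KO and at 4.37 to 11.1 CPM in WT (log2 fold change 1.92 ± 0.28, adjusted p = 7.1e-04 in edgeR), the one imprinted gene called of 31. The X-linked homeobox genes Rhox6, at 6.13 to 81.3 CPM (median 12.2) against 0 to 2.33 CPM, and Rhox9, at 1.76 to 43.1 CPM (median 5.61) against 0 to 0.951 CPM, were the 2 called of 6 trophoblast markers tested, whose 8 genes summed to 210 to 331 CPM in Dnmt3b KO and 114 to 271 CPM in WT. Xlr3a was at 14.3 ± 6.44 CPM (SD, n = 3) against 1.62 ± 1.07 CPM (n = 7). The 2 genes that fell lie 1.37 and 1.33 megabases from Dnmt3b on chromosome 2. Ahcy, the enzyme gene that clears the product of methylation reactions, was at 9.10, 7.34 and 9.11 CPM against 16.7 to 26.5 CPM (-1.34 ± 0.16, adjusted p = 1.2e-04), and Gm14226 at 0.0929, 0.0596 and 0 CPM against 4.66 to 26.2 CPM (-6.91 ± 0.85, adjusted p = 1.3e-04). Linked sequence around the mutated gene and the mutation itself cannot be told apart. Hand1 was at 265 to 650 CPM against 191 to 300 CPM (adjusted p = 0.033), Phlda2 at 4609 to 5082 CPM against 1809 to 3663 CPM (adjusted p = 0.025) and Meg3 at 782 to 1310 CPM against 575 to 910 CPM (adjusted p = 0.050), none past the threshold. No gene was called among the allantois factors, BMP, Wnt and Fgf, Hox, matrix and vascular lists, nor among 12 smooth muscle genes. A positive log2 fold change was found in 12 of 12 smooth muscle genes (median 0.37), 15 of 26 matrix genes (0.22), 12 of 24 BMP genes (0.01), 14 of 28 allantois factors (0.00), 10 of 32 Wnt and Fgf genes (-0.25), 8 of 17 vascular genes (-0.28) and 5 of 31 Hox genes (-0.35).

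When both libraries with low Dnmt3a (labelled Dnmt3b KO 11 and 12) were left out, the group held 1 library, Dnmt3b KO 1 and 2, which was assumed to vary like the other groups. In that fit 18 genes were called, all of them higher and all among the 77, and 8 of 26 germline genes tested were called (median log2 fold change 3.61). All 12 smooth muscle genes again had a positive value (median 0.45), as had all 8 cardiac markers (median 0.64). With all 3 libraries 5 of the 8 cardiac markers were positive (median 0.22). Rpl39l (log2 fold change 4.79), Sycp1 (7.86), Cyct (5.00), Tuba3b (5.99), Dazl (4.54) and Mov10l1 (5.45) kept their calls. Tex15 (1.07), Slc22a18 (1.41), Xlr3a (2.37), Rhox6 (2.13), Rhox9 (2.80), Ahcy (-1.29) and Gm14226 (-6.42) lost theirs, with adjusted p from 0.056 to 0.95 in edgeR. The promoter counts and the contrast with other Hand1 and Foxf1 cells were not computed without these libraries. Without WT 2 the count was 123.

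**Figure D5:**
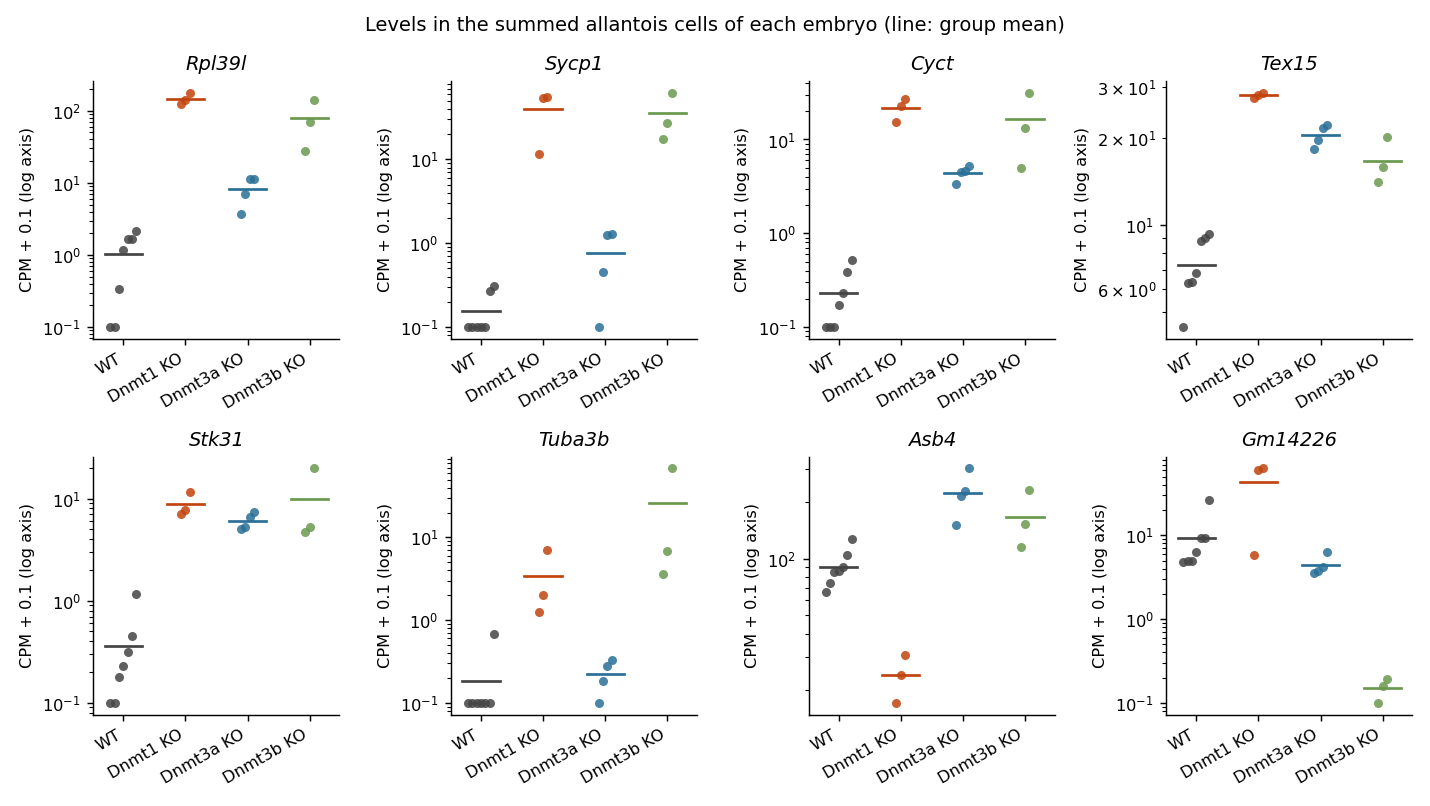
Levels (CPM + 0.1 on a log axis) of 8 genes in the summed allantois cells of each embryo by genotype, with 1 point per embryo and a line at the group mean. Rpl39l and Sycp1 are high in Dnmt1 KO (123 to 177 and 11.4 to 55.1 CPM) and Dnmt3b KO (27.7 to 142 and 17.2 to 62.2 CPM), Tex15 and Stk31 are raised in all 3 mutants, Asb4 is low in Dnmt1 KO and high in Dnmt3a KO, and Gm14226 is near 0 in Dnmt3b KO.

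Set against each other directly, Dnmt3b KO and Dnmt3a KO members differed in 9 of 12535 genes (0.0718%), 8 higher in Dnmt3b KO (0.0638%) and 1 lower (0.00798%). Sycp1 was at 17.2 to 62.2 CPM in Dnmt3b KO and 0 to 1.19 CPM in Dnmt3a KO, a difference of 5.63 ± 0.53 (SE) on the log2 scale (adjusted p = 7.0e-05 in edgeR). Rpl39l was at 27.7 to 142 against 3.6 to 11 CPM (3.31, adjusted p = 7.6e-03) and Tuba3b at 3.53 to 68.2 against 0 to 0.230 CPM. Tuba3a, AU022751, Gm9, Xlr3c and Taf7l, a testis form of a general transcription factor subunit, were the others that were higher, and Gm14226, 1.33 megabases from Dnmt3b, was lower. Sycp1 passed under 33 of 34 alternatives, AU022751 under 25 of 31, Tuba3a under 24 of 32, Gm9 under 24 of 31 and Tuba3b under 22 of 32. Rpl39l passed under 15 of 34, with values down to 1.71, Gm14226 under 11 of 33 and Taf7l under 9 of 30. Without Dnmt3b KO 11 and 12 edgeR called no gene, with 311 genes at an unadjusted p under 0.05, and Sycp1 stood at 4.54 (adjusted p = 0.033). DESeq2 was not run in that setting. The count was 5 without Dnmt3a KO 13 or WT 5, 1 without Dnmt3a KO 14 or Dnmt3a KO 2, 3 without Dnmt3a KO 1, 4 without Dnmt3b KO 12 and 15 without WT 2. Gpr50 (8.34 to 16.5 CPM in Dnmt3a KO, 3.15 to 3.53 in Dnmt3b KO), Tex15 and Stk31 were not called between them.

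To ask where effects in the allantois differed from those in nearby mesoderm, the effect of each knockout in members was set against its effect in the other cells with Hand1 and Foxf1, with the embryo as a block. The other cells had to lack Tbx4 and the 3 Hoxa genes. Cells with exactly 1 UMI of Tbx4 or of the Hoxa genes were 21 of 39 members in Dnmt1 KO and 261 of 1183 in WT. The part of this choice in the difference of any gene was not tested. Rgs5 and Plac1, given below, were among the 20 genes named by their ratio in WT members. For Dnmt1 KO the effects differed in 38 of 14322 genes (0.265%), 14 with a higher value in allantois cells (0.0978%) and 24 with a lower one (0.168%). None of 29 germline genes was among them. Rgs5 fell in allantois cells, from 109 ± 24.1 CPM (SD, n = 7) to 41.9 ± 9.95 (n = 3), and was higher in the other cells, 91.8 against 29.0 CPM, a difference of the log2 effects of -3.16 ± 0.33 (SE; adjusted p = 6.8e-05 in edgeR). Irx3, an Iroquois homeobox gene, ran the other way, from 17.9 to 74.5 CPM in allantois cells and from 38.8 to 27.3 CPM in the others (2.45 ± 0.28, adjusted p = 8.6e-05). Plac1 went from 150 to 109 CPM in allantois cells and from 12.5 to 53 CPM in the others (-2.62 ± 0.34). Smad6 went from 35.8 to 8.93 and from 15.7 to 16.0 CPM (-2.13 ± 0.39), Tgfb1 from 51.2 to 18.7 and from 8.35 to 10.2 CPM (-1.88), and Isl1 from 57.5 to 27.1 and from 10.4 to 16.0 CPM (-1.83).

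Among the imprinted genes, H19 went from 1218 to 1769 CPM in allantois cells and from 862 to 2347 CPM in the others, so that its effect was smaller in the allantois (-1.01 ± 0.12, adjusted p = 1.0e-04 in edgeR). Asb4 went from 90.4 to 24.0 CPM and from 35.6 to 35.6 CPM (-2.04), and Igf2r from 245 to 28.0 and from 111 to 29.1 CPM (-1.33). Of 32 Hox genes tested, 4 were called with a higher value in allantois cells and none with a lower one, and 24 had a positive value (median 1.06 against -0.08 over all genes). Hoxb9 was at 54.0 and 39.6 CPM in WT and Dnmt1 KO allantois cells and at 71.7 and 7.18 CPM in the other cells (2.87 ± 0.49), Hoxa7 at 69.2 and 60.9 and at 37.6 and 5.45 CPM (2.49), Hoxc6 at 43.3 and 28.8 and at 22.7 and 3.11 CPM (2.17), and Hoxd9 at 39.0 and 59.7 and at 29.3 and 12 CPM (1.82). The allantois cells were required to hold a posterior Hoxa UMI and the other cells to lack it, and the part of this choice in the contrast was not tested. For Dnmt1 KO the count ran from 7 to 92 when 1 library was left out, with 10, 17 and 7 genes without Dnmt1 KO 1, 2 and 3, 24 without WT 3 and 92 without WT 7.

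For Dnmt3a KO and Dnmt3b KO no gene of 14005 passed the thresholds in this comparison with edgeR (0% each), where 1181 and 1454 genes were at an unadjusted p under 0.05 and DESeq2 called 0 and 6. Rpl39l, as an example, was found in 20.7 to 74.4% of thinned Dnmt3b KO allantois cells and in 20.4 to 65.9% of the other cells with Hand1 and Foxf1, and Cyct in 3.64 to 21.0% and 5.13 to 19.97%. A count of 0 does not show that the effects were equal.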

How the data were processed

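UMI counts per gene and barcode were deposited by the authors, who sequenced 10x 3′ libraries and aligned them to mm10, according to the study's methods, with Cell Ranger. The file headers name version 3.1.0 for 17 libraries and 5.0.0 for 1, and for 4 libraries the reference held human beside mouse genes, of which only mouse rows (31053 genes) were used. The deposited counts were not normalized and no cell annotation was used. No doublet caller was run, and members with 3 or more genes of another cell type's markers were left out in an alternative that dropped 34.3 to 88.3% of the members of a library.

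Allantois cells were chosen by the UMI rule given above. Raw counts were summed over the members of each embryo and tested by quasi-likelihood in edgeR 4.0.16 (R 4.3.3) (TMM scaling, filterByExpr, all groups in 1 fit, Benjamini-Hochberg adjustment), with a minimum of 20 members a library. The Dnmt1 KO comparison used a minimum of 10, chosen after the cell numbers were seen. CPM values are summed UMIs scaled to a common total. Effects in members and in other Hand1 and Foxf1 cells were compared in a fit with the embryo as a block. DESeq2 1.42.0, other filters and scalings, thinning and leaving out libraries were alternatives. Scripts were tested on simulated data. Tables were handled with Python 3.11.15, numpy 2.4.6, pandas 2.3.3 and scipy 1.17.1.

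Named genes were the 3 targeted and 5 rule genes, the 8 higher and 8 lower called genes of each knockout with the smallest adjusted p among those not overlapping WT, the 5 of the other comparisons, the called members of each list (at most 6, otherwise the 3 highest in WT) and the 20 genes with the largest ratio at 50 CPM or more. Other genes given with values are members of the fixed lists, apart from Hoxaas3, Hhex, Sox18 and Tgfb1, which were picked after the values were seen. Vcam1, Cdx4 and Etv2 were likewise chosen for the split after their values were seen. A further marker list is not reported here. The members and lists were chosen with earlier results of these data known.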

Additional observations from a re-analysis of the deposited data

Results flagged for a closer look

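In groups of 4 to 10 embryos, 1 embryo stood apart from the rest of its group in 8 of 66 sets of values, where chance gives about 1 in 20. In WT these were AU022751 at 0.211 CPM, Rec114 at 2.64 CPM and Stk31 at 1.06 CPM in WT 2, Dnmt3a at 51.8 CPM and Xlr at 1.67 CPM in WT 5, and Gm14226 at 26.2 CPM in WT 7. In Dnmt3a KO they were Dnmt3b at 32.5 CPM in Dnmt3a KO 13 and Trim5 at 0.0851 CPM in Dnmt3a KO 14. Some of these values lie near 0, and all WT members together held 2 UMIs of AU022751. The rate of 1 in 20 need not hold for such counts.

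The Dnmt1 KO effect differed between allantois cells and the other Hand1 and Foxf1 cells in 38 genes by a test of the difference itself with edgeR. The 5 with the smallest p were Rgs5 (-3.16 on the log2 scale), Irx3 (2.45), H19 (-1.01), Plac1 (-2.62) and Hoxd9 (1.82). The part of the choice of cells by the rule in these differences was not tested. In the 4 libraries counted on the combined reference, 92540 UMIs (0.00931%) lay on human rows, which no comparison used.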

How the results depend on the processing

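Among the genes called in the 4 comparisons of members, none changed direction under any alternative run, and of the 38 genes whose Dnmt1 KO effect differed from other Hand1 and Foxf1 cells, Aqp4 changed direction without Dnmt1 KO 3. The 270 genes of Dnmt1 KO became 138 with sums thinned to the smallest, and the settings that drop members with 3 genes of another marker list or choose cells after thinning left too few cells for a value. The 12 genes of Dnmt3a KO became 30 with DESeq2, 24 with no filter on low counts, 1 without members with 3 genes of another list, 0 with cells chosen after thinning, 4 with a minimum of 50 cells, 0 with thinned sums, 4 with the reference as a covariate, 7 with Dnmt3b KO 1 and 2 kept apart, 19 with only the groups compared and 21 without Dnmt3b KO 11 and 12, with 1 and 2 as 1 library. In the same order of settings the 77 of Dnmt3b KO became 137, 149, 18 and 2, with 13 for thinned sums and 18 without Dnmt3b KO 11 and 12. The 9 between Dnmt3b KO and Dnmt3a KO became 19, 29, 2, 1, 5 and 2 in the first 6 of these settings, 5 with the Y-linked or the reference covariate, 4 with only the groups compared, 0 without Dnmt3b KO 11 and 12 and 18 with a minimum of 10 cells. With Dnmt3b KO 1 and 2 entered as 2 libraries, although they share cells, leaving out 11 and 12 gave 25, 43 and 3, and both settings without 11 and 12 were added after seeing the data. The 38 genes that differed from other Hand1 and Foxf1 cells in Dnmt1 KO became 99 with DESeq2, 22 with its size factors and 180 with no filter. The count of 0 became 4 with no filter and 2 without members with 3 genes of another list in Dnmt3a KO, and 6 with DESeq2 and 28 with no filter in Dnmt3b KO. The cause was not tested for any of these.

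Mean shares became 0.585, 0.0136, 0.594 and 0.655% (WT, Dnmt1 KO, Dnmt3a KO, Dnmt3b KO) when cells were chosen after thinning, 6.82, 1.48, 5.45 and 5.98% without cells with 3 genes of another list, and 5.69, 1.01 and 5.47% in the first 3 groups when such genes needed 5 UMIs, a setting added after seeing the data. Leaving out 1 library gave 137 to 330 genes for Dnmt1 KO, 1 to 26 for Dnmt3a KO, 62 to 123 for Dnmt3b KO, 1 to 15 between Dnmt3b KO and Dnmt3a KO, 7 to 92 for the Dnmt1 KO difference from other cells and 0 to 0 for the other differences. Mean shares then ran from 3.08 to 3.90% in WT, 0.490 to 0.662% in Dnmt1 KO, 3.55 to 4.27% in Dnmt3a KO and 3.46 to 4.86% in Dnmt3b KO. With the replicate block the counts were 311 for Dnmt1 KO, 0 for Dnmt3a KO, 0 for Dnmt3b KO and 2 between both. The replicate numbers did not pair the embryos, since 1 of 13 pairs had a correlation of deviations over 0.1 (range -0.197 to 0.124), and 1 of 10 samples correlated best with its own number. Results on Dnmt1 KO rest on 39 cells.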
